A study of Rattus norvegicus with 47 samples.

Results

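Mitochondrial ribosomal proteins build the ribosome that works inside mitochondria. This ribosome translates the few messengers of mitochondrial DNA, all of which encode core subunits of the respiratory chain and of the ATP synthase. Its proteins are encoded in the nucleus, made in the cytosol and imported, and they are joined with ribosomal RNAs transcribed from mitochondrial DNA. The kidney cortex, above all the proximal tubule, is rich in mitochondria because sodium reabsorption consumes much ATP. The genes described here were the 73 of 14747 genes in the kidney mRNA table whose symbol begins with Mrpl (large subunit) or Mrps (small subunit) followed by a number. All 73 had a mean normalized count of at least 5 over the 16 kidneys, as did 13673 genes in all.

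The kidneys came from male Wistar Han rats, 7 weeks old at the start, that were fed a high-fat diet (HFD, n = 8) or a standard diet (SD, n = 8) for 10 weeks. Wistar Han rats are outbred, and each library was made from whole kidney tissue of 1 rat. The question was which transcripts differ with the diet and with early lesions of obesity-related glomerulopathy, namely PH (podocyte hypertrophy) and MMI (an increase of the mesangial matrix). The GEO labels give the diet only. Which rats had a lesion was taken by eye from rat numbers printed in the published heat maps, and those of rats 1246, 1248 and 1249 were hard to read. PH was marked in 9 rats (6 HFD, 3 SD) and not marked in 7 (2 HFD, 5 SD). MMI was marked in 8 rats (5 HFD, 3 SD) and not marked in 8 (3 HFD, 5 SD). The paper's histology, however, describes early lesions, MMI and PH among them, in all HFD-fed rats. Some HFD rats carry only 1 of the marks here, and this difference could not be resolved. Both lesions were marked in 3 rats, all HFD, while 6 rats had PH alone, 5 had MMI alone and 2, both SD, had neither. Most rats thus had 1 lesion and not the other, so the comparisons by PH and by MMI overlap, and fits with the other lesion as a covariate are given beside them.

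Normalized counts summed to between 17623718 and 22565849 per library. The first principal component of the 13673 genes held 46.2% of the variance, and 5 rats with MMI, HFD 1252, 1255 and 1274 and SD 1247 and 1248, lay at one end of it (54.3 to 78.3, all others below 0). Of the other 3 with MMI, SD 1250 and HFD 1256 lay among the rats without it. HFD 1267 lay at -1.39, just beyond the nearest rat without MMI (SD 1249, -3.76). Nephron markers were present in every kidney. All 14 proximal tubule markers and all 6 thick ascending limb markers had means above 100 normalized counts, and no nephron or podocyte marker was at 0 in any rat.

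Every mitochondrial ribosomal protein gene was detected in every rat. Means ran from 25.4 normalized counts for Mrpl1, the lowest of the large subunit, to 3208 for Mrpl15, the highest, and in the small subunit from 283 for Mrps10 to 2584 for Mrps6. These counts were not corrected for transcript length, so they do not rank the genes by abundance. Mrpl1, the protein of the stalk by which spent tRNAs leave, was nearest to the limit of 5 and ranged from 5.94 to 62.5 between rats. The standard deviation over the 16 rats had a median of 0.30 on the log2 scale for the 73 genes and of 0.40 for all 13673 genes. The steadiest was Mrpl10, a stalk protein (0.14, from 1028 to 1519.6 normalized counts). Mrpl43, a large subunit protein without a bacterial counterpart, varied the most (1.26). By position 46 of the 73 genes belong to the large subunit, counting Mrps18a and Mrps30, whose proteins sit there in spite of their symbols. RefSeq lists Mrps36 as Kgd4, a component of 2-oxoglutarate dehydrogenase and not of the ribosome. It is counted here because its symbol in the table fits the rule, and its log2 fold changes were -0.10 by diet, -0.11 by PH and 0.09 by MMI, none of them called.

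By diet, most mitochondrial ribosomal protein genes were slightly lower in HFD kidneys, but no single gene passed the test. Of the 73 genes, 67 (91.8%) had a log2 fold change (HFD over SD) below 0, against 53.8% of all genes tested. Their median was -0.20, that of all 13673 genes -0.02, and their values ran from -0.51 to 0.14. Large and small subunit genes had the same median of -0.20. The rats of the 2 diets overlapped widely. Averaged over the 73 genes, the deviation from the 16-rat mean was -0.33, -0.15 and 0.33 (lowest, median and highest) in HFD rats, against -0.42, 0.14 and 0.45 in SD rats. With libraries scaled to equal totals the medians were -0.13 for the 73 genes and 0.05 for all genes, and 11 of the 73 were above 0, against 6 as deposited. With limma and Benjamini-Hochberg adjustment over all genes tested, 0 of the 73 genes and 0 of 13673 (0%) were called at an adjusted p under 0.05. The authors, with DESeq2, called Epha3, Atp12a, Robo3 and Sult4a1 by diet, none of them among the 73. Their qPCR found a difference for each of these but Robo3. At an unadjusted p under 0.05 there were 5 of the 73 genes and 593 of all (4.34%).

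**Figure D1:**
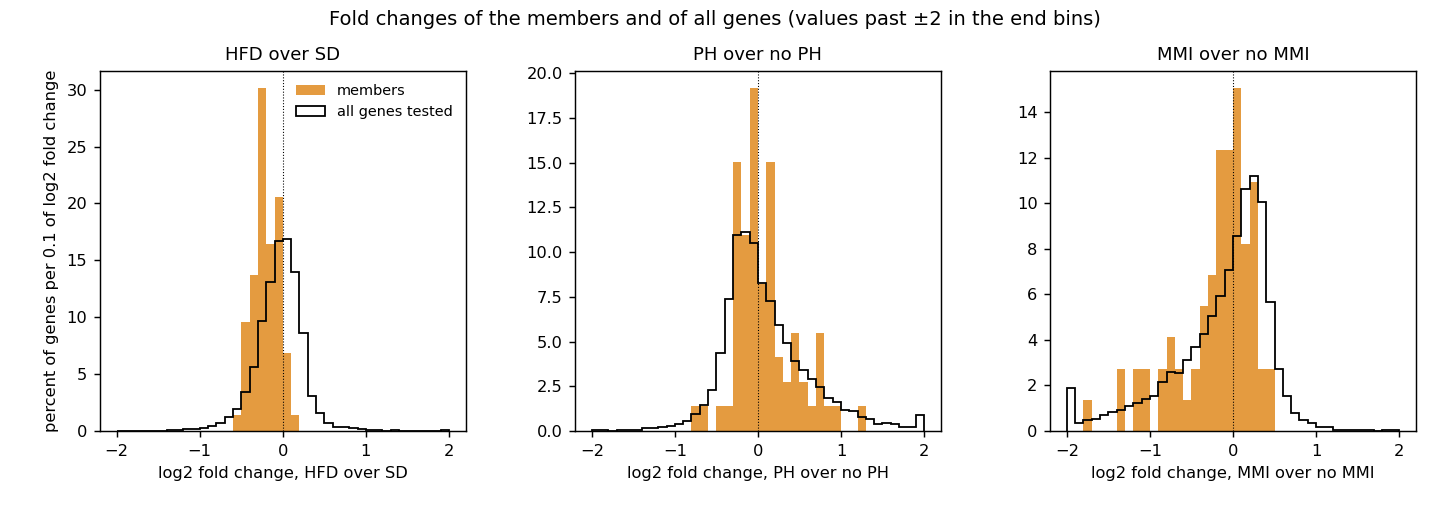
Log2 fold changes of the 73 mitochondrial ribosomal protein genes (filled bars) and of all 13673 genes tested (line), as percent of genes per 0.1 of log2 fold change (y axis), for HFD over SD, PH over no PH and MMI over no MMI. By diet the members lie mostly left of 0 (median -0.20, all genes -0.02), by PH around 0, and by MMI with a tail to the left (from -1.76 to 0.50, median -0.07). Values past 2 in either direction are drawn in the end bins.

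Those 5 genes were all lower in HFD rats. Mrps21, a small subunit protein that binds near the platform, stood at 696, 948 and 1135 normalized counts (lowest, median and highest of 8) in HFD rats, against 879, 1144 and 1285 in SD rats. For Mrps21 the difference was -0.32 on the log2 scale (standard error 0.12), and 3 HFD rats were below all SD rats. Mrpl58, better known as ICT1, which frees peptides from stalled ribosomes, had 856, 1028 and 1512 in HFD rats, against 1043, 1332 and 1750.2 in SD rats (log2 fold change -0.33, standard error 0.13). Mrpl42, a large subunit protein, had 590.2, 833 and 1430.2 in HFD rats, against 879, 1131 and 1485 in SD rats (-0.38, standard error 0.16), and 5 HFD rats were below all SD rats. Mrpl27, of the central protuberance, differed by -0.30 on the log2 scale, and Mrpl23, at the exit of the peptide tunnel, by -0.29. Mrps16, the next by p, had -0.37 (standard error 0.17). Each of these 6 had an adjusted p of 0.918 from limma, and for none of them were the groups of rats apart.

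The 6 genes with a positive value were Mrpl50 (0.14), Mrpl33 (0.07), Mrpl1 (0.06), Mrpl49 (0.05), Mrpl47 (0.03) and Mrps31 (0.01). Each of these values was about as large as its standard error or smaller. Other mitochondrial and ribosomal genes lay below 0 by diet too. All 74 nuclear genes of respiratory chain and ATP synthase subunits had a negative log2 fold change by diet (median -0.28), as did all 13 mRNAs of mitochondrial DNA (median -0.15) and 64 of 74 cytosolic ribosomal protein genes (median -0.19). Of these genes 0 were called by limma, and an unadjusted p under 0.05 was reached by 18 respiratory chain, 1 mitochondrial and 2 cytosolic ribosomal genes. Mitochondrial tRNA synthetases (14 of 20 below 0) and translation factors (7 of 11 below 0) had medians of -0.04. Among markers of other cells, all 8 of macrophages were below 0 by diet (median -0.43) and so were all 6 of adipocytes (median -0.80), with 0 called and summed shares of 0.00996 to 0.0270% and 0.0101 to 0.0870% of counts in HFD rats, against 0.0152 to 0.0400% and 0.0123 to 0.0593% in SD rats. Proximal tubule markers, summed, made up 1.18 to 2.87% of counts in HFD rats, with the lowest values in HFD 1255 and HFD 1274, against 1.54 to 2.37% in SD rats. The part of these cells in the shift was not tested. In whole tissue, fewer cells of a type and less RNA per cell cannot be told apart.

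By PH the genes were split, 36 above and 37 below 0, against 48.8% above and 51.2% below over all genes, with a median of -0.00 (all genes -0.01). Only 1 of the 73 genes (1.37%) was called, against 174 of the 13673 (1.27%), a share near the background. By direction 102 genes (0.746%) were higher and 72 (0.527%) lower. At an unadjusted p under 0.05 there were 12 of the 73, against 31.6% of all genes. The called gene was Mrps6 (ENSRNOG00000059381), a protein of the small subunit platform. Mrps6 stood at 1556, 1823 and 3296 normalized counts (lowest, median and highest) in the 9 rats with PH, against 2286, 3323 and 3765 in the 7 rats without. In 6 of the 9 rats with PH it lay below every rat without PH, and the highest of the other 3 was HFD 1256. Mrps6 fell by 0.66 on the log2 scale (standard error 0.16, adjusted p = 0.0492, limma). This call was at the edge of the threshold. It held without SD 1250, HFD 1252 or HFD 1256 and was lost without any 1 of the other 13 rats (adjusted p from 0.0130 to 0.132 over the 16), and with MMI as a covariate (-0.61, adjusted p = 0.179). Within HFD rats the difference was -0.88 (adjusted p = 0.126) and within SD rats -0.51 (adjusted p = 0.140).

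**Figure D2:**
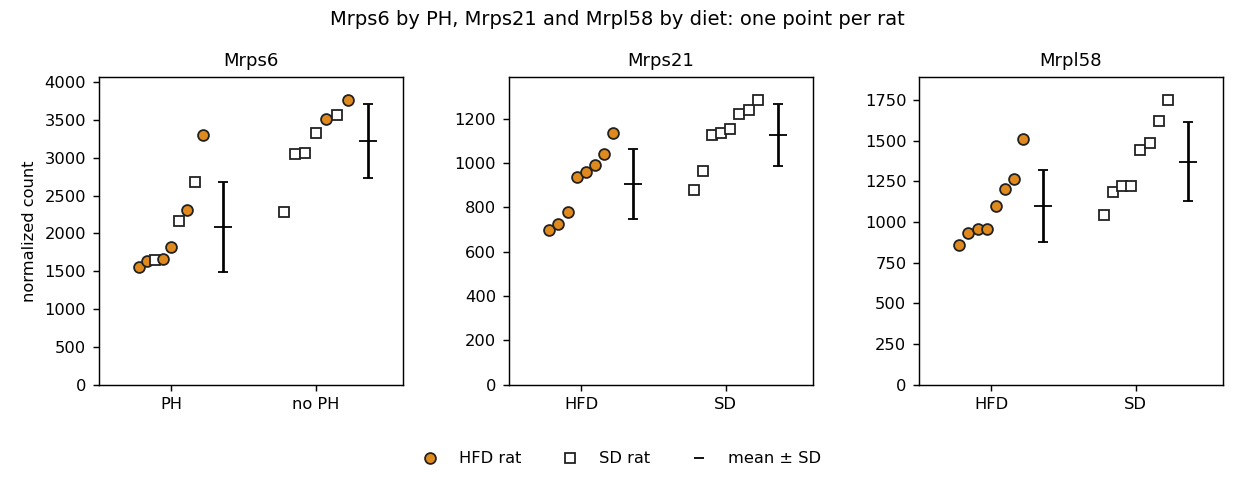
Normalized counts (y axis, from 0) of Mrps6 in rats with and without PH, and of Mrps21 and Mrpl58 in HFD and SD rats. Each point is 1 rat (filled, HFD; open, SD), and bars give the mean ± SD of each group. Mrps6 is lower in most rats with PH (median 1823 against 3323), while the points of the 2 diets overlap for Mrps21 and Mrpl58.

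The next genes by p did not pass. Mrpl38, of the central protuberance, had 475, 1232 and 2333 normalized counts in rats with PH, against 413, 651 and 1030.0 without (log2 fold change 0.74, standard error 0.26, adjusted p = 0.085 from limma). Mrpl4, which lines the peptide tunnel, had 1026, 1603 and 2616 with PH, against 857, 1181 and 1476 without (0.48, standard error 0.18), and 6 of the 9 rats with PH lay above every rat without. Mrpl48, another protein of the central protuberance, had 651, 1084 and 1434 with PH, against 1105, 1482 and 1692 without (-0.42, standard error 0.16). For Mrpl35, a homologue of bacterial L35, the difference was -0.28 (standard error 0.10). Mrpl43 had 179, 1386 and 2203 with PH, against 182, 416 and 1325 without (1.30, standard error 0.51, adjusted p = 0.105), and its lowest value with PH belonged to HFD rat 1252, which also had MMI. The number of calls by PH depended on single rats. Without SD 1250, 4 of the 73 genes (5.48%) were called, 3 higher and 1 lower, against 15.7% of all genes. Without HFD 1252, 13 of the 73 genes (17.8%) were called, 9 higher and 4 lower, against 27.8% of all genes. With diet as a covariate 10 (13.7%) were called, 9 higher and 1 lower, also against 27.8% of all. With MMI as a covariate 0 of the 13673 genes were called by limma, and 1 of the 73 had an unadjusted p under 0.05. Podocyte markers (2 of 8 rose, median 0.97) and proximal tubule markers (2 of 14 rose, median 0.60) moved by PH as well, at 0.0236 to 0.0345% and 1.94 to 2.87% of counts with PH, against 0.00625 to 0.0219% and 1.18 to 2.25% without. Their part in these values was not tested.

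By MMI, the comparison with the most genes called, 18 of the 73 genes (24.7%) were called by limma at an adjusted p under 0.05, 14 lower and 4 higher in rats with MMI. Over all 13673 genes 3561 (26%) were called, so the share among the mitochondrial ribosomal protein genes was near the background. By direction 19.2% of the members were lower, against 17.7% of all genes, and 5.48% were higher, against 8.37%. Their median log2 fold change (MMI over no MMI) was -0.07 and that of all genes 0.03. Above 0 were 29 of the 73 and below 0 44, against 52.6% and 47.4% of all genes, and 23 of the 73 had an unadjusted p under 0.05, against 42.1% of all. Quantile normalization shifted both medians upwards, to 0.01 for the 73 genes and 0.15 for all genes. For none of the 18 called genes were the groups of rats apart, against 0.483% of all genes tested. The 14 lower genes had log2 fold changes from -1.76 to -0.53, whereas the 4 higher ones lay between 0.24 and 0.43.

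**Figure D3:**
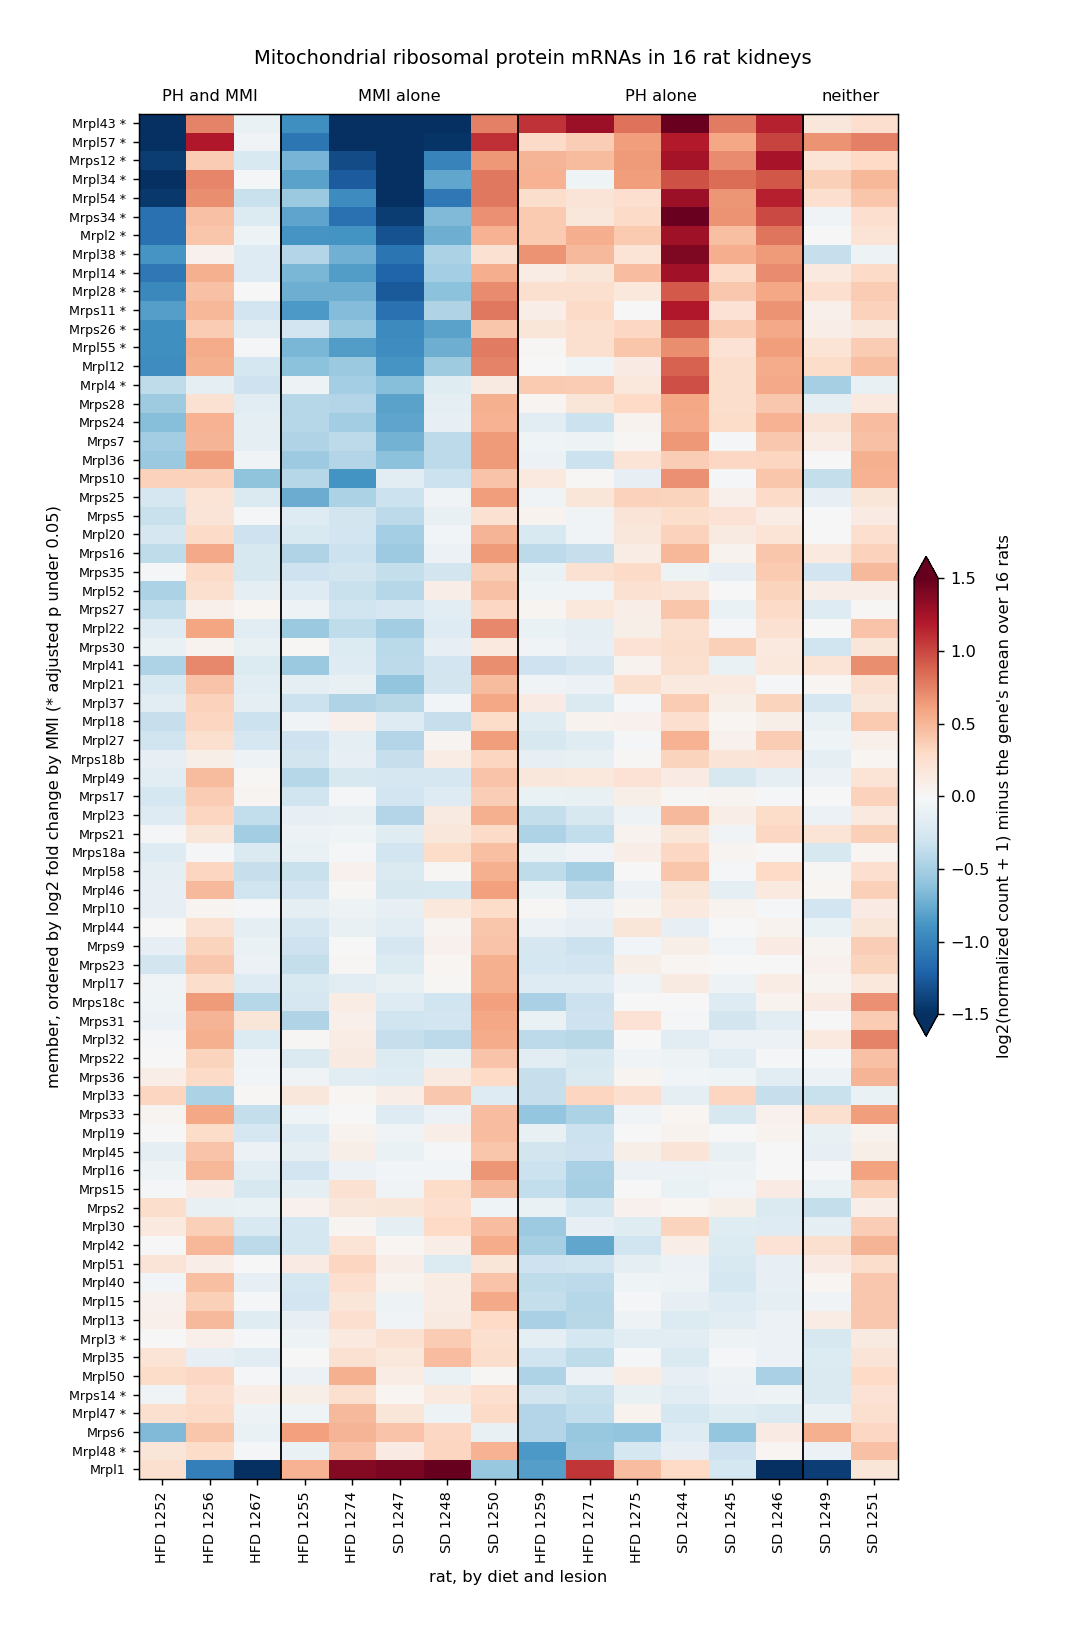
Log2(normalized count + 1) of each of the 73 genes (rows, ordered by log2 fold change by MMI, asterisk for an adjusted p under 0.05) minus the gene's mean over the 16 rats, in each rat (columns, by lesion and diet), with colours ending at 1.5 in either direction. The rows at the top are low in HFD 1252, HFD 1255, HFD 1274, SD 1247 and SD 1248 and not in SD 1250 or HFD 1256, 2 other rats with MMI, in which most of the 73 genes are above their own median (69 in SD 1250 and 68 in HFD 1256).

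**Figure D4:**
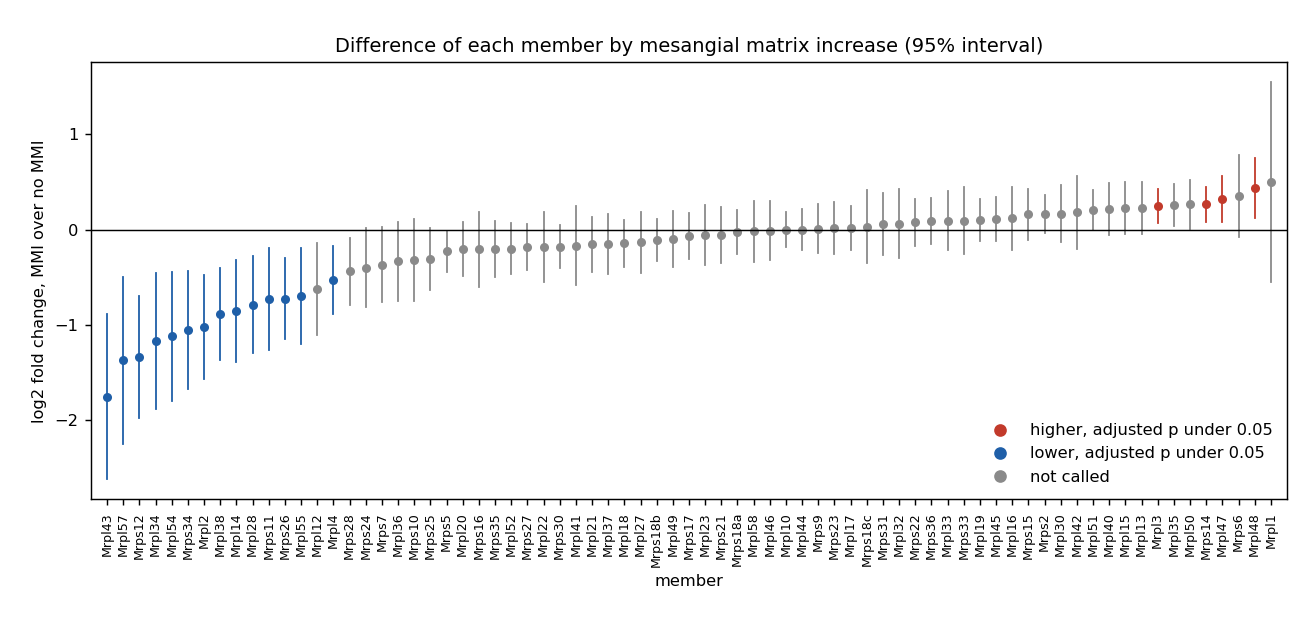
Log2 fold change (y axis, MMI over no MMI) of each of the 73 genes (x axis) with its 95% interval, unadjusted. Filled colours mark the 14 genes called lower and the 4 called higher at an adjusted p under 0.05, and grey the 55 not called.

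Mrps12 (ENSRNOG00000019949), a protein of the decoding centre where the ribosome checks codon against anticodon, had the smallest p. It stood at 191, 338 and 959 normalized counts (lowest, median and highest of 8) in rats with MMI, against 701, 906 and 1451 in rats without. In 6 of the 8 rats with MMI it lay below every rat without, and the other 2, HFD 1256 at 792 and SD 1250 at 959, lay within their range. On the log2 scale Mrps12 fell by 1.33 (standard error 0.30, adjusted p = 0.00865 from limma). Mrpl43 (ENSRNOG00000014890) had 179, 336 and 1325 with MMI, against 888, 1526 and 2203 without, the largest fold among the 73 genes (log2 fold change -1.76, standard error 0.41, adjusted p = 0.00913). Again HFD 1256 (1313) and SD 1250 (1325) stood among the rats without MMI. Mrpl2 (ENSRNOG00000018057), which lies beside the peptidyl transferase centre, had 304, 431 and 1086 with MMI, against 759, 1014 and 1829 without (-1.02, standard error 0.26, adjusted p = 0.0122). Mrpl38 (ENSRNOG00000008256) had 413, 641 and 1030.0 with MMI, against 693, 1259 and 2333 without (-0.88, standard error 0.23, adjusted p = 0.0132), and 5 of the 8 rats with MMI lay below every rat without it.

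Of the remaining genes lower with MMI, Mrps34, which keeps the small subunit stable, had 527, 854 and 2278 normalized counts with MMI, against 1361, 1790.0 and 3947 without (log2 fold change -1.05, standard error 0.29, adjusted p = 0.0186 from limma). Mrps26, a small subunit protein found only in mitochondria, had 345, 500.4 and 895 with MMI, against 719.7, 811 and 1278 without (-0.72, standard error 0.20, adjusted p = 0.0185). The 8 others were Mrpl57 (-1.37), Mrpl34 (-1.17), Mrpl54 (-1.12), Mrpl14 (-0.86), Mrpl28 (-0.79), Mrps11 (-0.73), Mrpl55 (-0.70) and Mrpl4 (-0.53), at adjusted p from 0.0207 to 0.0441. Mrpl14 lies at the face between the subunits, Mrpl4 in the wall of the tunnel and Mrps11 on the platform. For 13 of the 14 genes, all but Mrpl4, the 5 rats at the end of the first principal component held the 5 lowest values of the 16. That was so for 18 of the 73 genes (24.7%) and for 1534 of all genes tested (11.2%), and these rats were singled out from the same table. They held the 5 highest values for 0 of the 73 genes and for 4.81% of all. Rat HFD 1267, the other with MMI, was below every rat without MMI for 11 of the 14. SD 1250 was above the median of the rats without MMI for 11 of the 14 and HFD 1256 for 9. By PH all 14 had a positive log2 fold change (0.46 to 1.30, 0 called, 6 at an unadjusted p under 0.05), and by diet all 14 a negative one. The 14 were chosen by their values by MMI, and most rats had 1 lesion and not the other. Their signs by PH are therefore not independent of that choice. Without the 5 rats the values by PH turned negative for Mrps11 (-0.07), Mrpl28 (-0.08), Mrpl55 (-0.11) and Mrpl57 (-0.19), and those of the 10 others lay between 0.01 and 0.54.

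**Figure D5:**
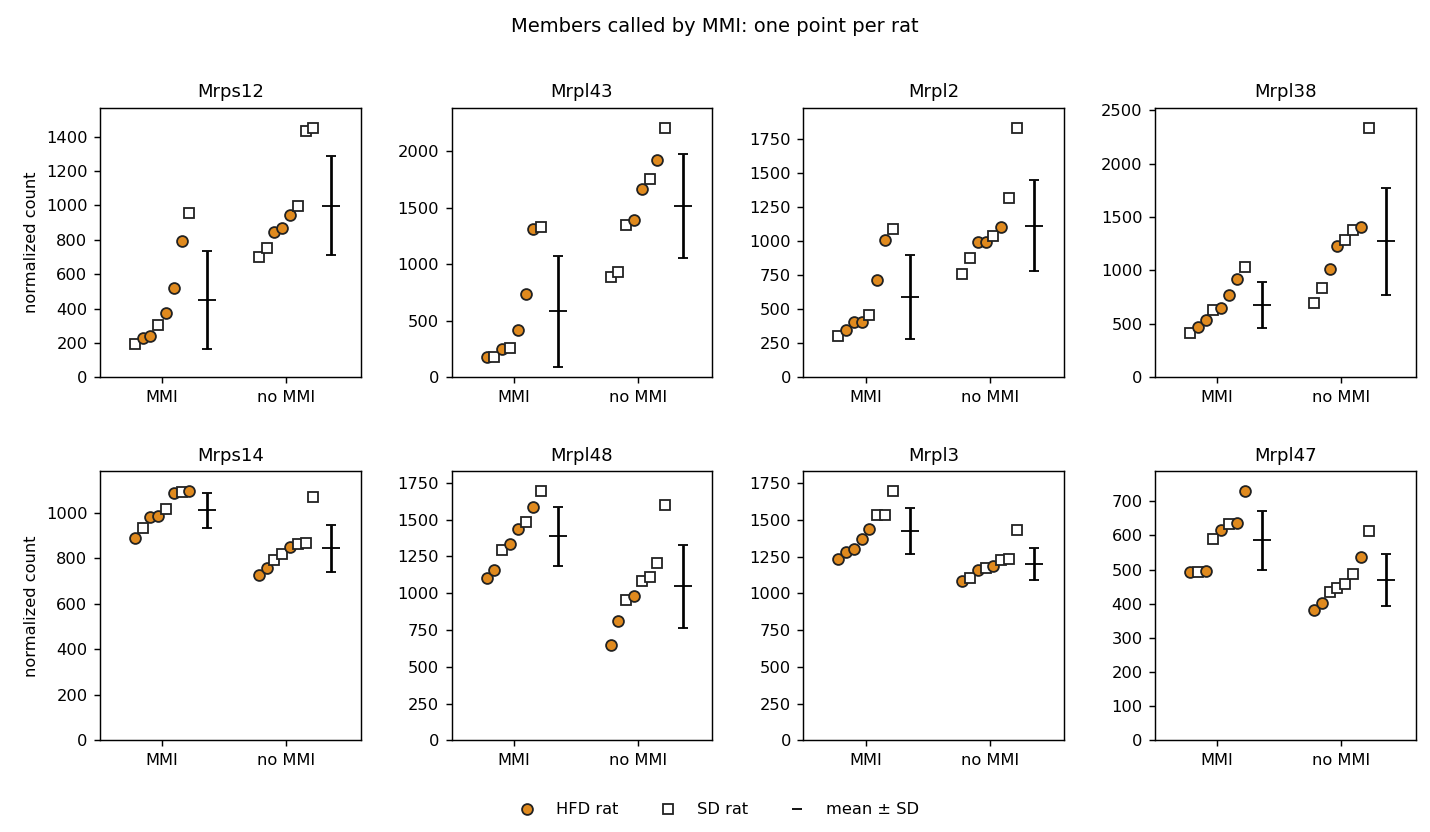
Normalized counts (y axis, from 0) of 4 genes called lower (top) and the 4 genes called higher (bottom) in rats with MMI and without. Each point is 1 rat (filled, HFD; open, SD), and bars give the mean ± SD of each group. In the top row 2 rats with MMI, and 3 for Mrpl38, sit within the range of the rats without, and in the bottom row the groups overlap although the means differ.

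The 4 genes that rose with MMI did so by less, and in all 8 rats with MMI each was above the median of the rats without. Mrps14 (ENSRNOG00000002569), in the head of the small subunit, had 889, 1002 and 1094 normalized counts with MMI, against 727, 835 and 1069.9 without (log2 fold change 0.27, standard error 0.09, adjusted p = 0.0346 from limma). The highest rat without MMI was SD 1251. Mrpl48 had 1105, 1385 and 1692 with MMI, against 651, 1034 and 1597 without (0.43, standard error 0.15, adjusted p = 0.0427). Mrpl3, which reaches the peptidyl transferase centre, had 1235, 1404 and 1695 with MMI, against 1082, 1178 and 1430.3 without (0.24, standard error 0.08, adjusted p = 0.0436). Mrpl47, at the exit of the tunnel, had 494, 603 and 729 with MMI, against 382, 452 and 614 without (0.32, standard error 0.12, adjusted p = 0.0488). Genes of the same neighbourhood went both ways. In the central protuberance, which binds tRNA between the subunits, Mrpl38 fell and Mrpl48 rose, and beside the peptidyl transferase centre Mrpl2 fell and Mrpl3 rose. Counted by region, 3 of 4 genes listed for the tRNA path and peptidyl transferase centre were called, with Mrpl4 of the tunnel wall counted there. So were 2 of 7 of the central protuberance, 2 of 5 of the decoding centre and platform and 1 of 8 of the head. At the tunnel exit it was 1 of 5 and in the stalk 0 of 2. Over all genes 26% were called.

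The start regions of some of these genes are shown because genes that share a promoter element were called in opposite directions. RefSeq promoter windows of the GRCr8 assembly, 250 bases before and 50 after each start, were matched to 59 of the 73 genes (61 windows), by symbol except Mrps36, which was matched by synonym. They were searched on both strands for CCGGAAGT, the core bound by the ETS factor GABP, which is known to act on nuclear genes of mitochondria. It was found in 7 of the 61 windows (11.5%) and in 3.81% of all 33469 windows of the table. Among genes called by MMI it stood in those of Mrpl3 and Mrpl48, which were higher, and of Mrps26, which was lower. The other windows with it were those of Mrpl27, Mrpl52, Mrps18c and Mrps27, which were not called. Over all genes 26% were called. When 1 rat was left out in turn, Mrpl3 was called in 4 of 16 fits, Mrpl48 in 5 and Mrps26 in all 16. The windows of Mrpl3, Mrpl48 and Mrps26 are printed 5′ to 3′ along the gene with the element in capitals, on either strand.
Mrpl3 (chr8:114548720-114549019, plus strand): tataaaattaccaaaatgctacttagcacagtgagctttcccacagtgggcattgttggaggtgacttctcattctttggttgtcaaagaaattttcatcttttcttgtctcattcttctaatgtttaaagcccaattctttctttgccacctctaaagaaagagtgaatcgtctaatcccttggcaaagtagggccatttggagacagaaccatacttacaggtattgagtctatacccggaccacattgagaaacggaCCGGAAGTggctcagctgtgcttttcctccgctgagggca
Mrpl48 (chr1:164351327-164351626, minus strand): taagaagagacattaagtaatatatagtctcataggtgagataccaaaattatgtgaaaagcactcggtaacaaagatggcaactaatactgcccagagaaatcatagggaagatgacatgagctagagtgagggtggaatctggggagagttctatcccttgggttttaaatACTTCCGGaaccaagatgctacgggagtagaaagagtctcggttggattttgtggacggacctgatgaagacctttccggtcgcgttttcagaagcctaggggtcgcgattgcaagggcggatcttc
Mrps26 (chr3:138222074-138222373, plus strand): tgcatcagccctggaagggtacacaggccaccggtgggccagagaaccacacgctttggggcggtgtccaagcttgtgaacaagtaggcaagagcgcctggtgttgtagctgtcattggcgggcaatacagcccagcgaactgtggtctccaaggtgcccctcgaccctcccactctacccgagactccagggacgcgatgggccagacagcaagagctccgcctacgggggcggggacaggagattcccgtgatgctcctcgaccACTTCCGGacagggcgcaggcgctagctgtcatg

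Mrps11 and Mrpl46 are the only pair among the matched genes whose starts lie within 1000 bases of each other on opposite strands. Their starts are 234 bases apart and 267 bases of the windows are common to both. Mrps11 fell with MMI (log2 fold change -0.73, standard error 0.25, adjusted p = 0.0441 from limma), a call that was lost with diet as a covariate (adjusted p = 0.0765). It had 392, 582 and 1469.8 normalized counts with MMI, against 850.2, 1015 and 1958 without. Mrpl46, of the central protuberance, had 488, 533 and 918 with MMI, against 470.2, 591 and 769 without (-0.01, standard error 0.15). A test of the difference between them was not run. The window of Mrpl46 holds the element of the factor YY1, whose letters as searched on both strands are in capitals here. It was found in 7 of the 61 windows (11.5%) and in 0.675% of all windows.
Mrpl46 (chr1:142116981-142117280, minus strand): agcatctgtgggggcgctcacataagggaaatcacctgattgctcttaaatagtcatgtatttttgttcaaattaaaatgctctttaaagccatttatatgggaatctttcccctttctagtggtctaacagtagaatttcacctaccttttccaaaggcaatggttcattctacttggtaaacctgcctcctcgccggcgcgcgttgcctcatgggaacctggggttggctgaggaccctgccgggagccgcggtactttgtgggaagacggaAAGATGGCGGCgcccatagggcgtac

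The palindrome bound by nuclear respiratory factor 1 (NRF1), a known activator of mitochondrial genes, stood in the windows of Mrpl17, Mrpl32, Mrpl44 and Mrps18b (6.56%) and in 0.852% of all windows. Not 1 of these 4 genes was called by MMI, where 26% of all genes were, and 4 genes are too few to set against that share. The log2 fold changes of the 4 genes were 0.02, 0.06, -0.00 and -0.11. The most even of them is shown with the element in capitals. Mrpl44, a protein of the large subunit, had 744, 852 and 1190.3 normalized counts with MMI, against 819, 865 and 1011 without. The Sp1 box GGGCGG stood in 30 of the 61 windows (49.2%) and in 33.1% of all. A match of letters is a description and not a site of binding.
Mrpl44 (chr9:88554800-88555099, plus strand): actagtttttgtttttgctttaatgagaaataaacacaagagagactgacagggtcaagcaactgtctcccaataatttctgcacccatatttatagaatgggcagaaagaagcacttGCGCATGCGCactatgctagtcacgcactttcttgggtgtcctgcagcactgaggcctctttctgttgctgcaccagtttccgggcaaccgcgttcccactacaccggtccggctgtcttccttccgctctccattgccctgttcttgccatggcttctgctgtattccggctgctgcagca

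By a list made by hand, which may be incomplete, inherited defects are known in people in 12 of the 73 genes. Of these, Mrps34 was called lower and Mrps14 and Mrpl3 higher with MMI, where 26% of all genes were called. Mrpl12, the stalk protein that also binds the mitochondrial RNA polymerase, just missed the threshold with 1548, 2026 and 4952 normalized counts with MMI, against 2816, 3564 and 5468 without (log2 fold change -0.63, standard error 0.23, adjusted p = 0.0519 from limma). Mrps28 had -0.44 and Mrps7 -0.37. The other 6, Mrpl44, Mrps2, Mrps16, Mrps22, Mrps23 and Mrps25, lay between -0.31 and 0.16 by MMI. By diet and by PH none of the 12 was called, against 0% and 1.27% of all genes.

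No difference between the diets was detected in the values by MMI. In the test of the difference between diets (an interaction of MMI and diet, limma), 0 of 73 genes were called, with a smallest adjusted p of 0.783 and 0 at an unadjusted p under 0.05, against 0 of 13673 (0%) and 922 (6.74%) over all genes. For PH and diet it was also 0 of 73 (smallest adjusted p = 0.628, 0 at an unadjusted p under 0.05), against 2 of 13673 (0.0146%) and 8.13%. Within HFD rats Mrps12 had a log2 fold change of -1.21 by MMI (adjusted p = 0.112) and within SD rats -1.41 (adjusted p = 0.164), and Mrpl43 -1.87 and -1.75. Within HFD rats 0 of the 73 genes were called by limma (14 at an unadjusted p under 0.05) and within SD rats 0 (12). Over all 13673 genes 0 were called by MMI within HFD rats and 2 (0.0146%) within SD rats. With PH as a covariate 2 of the 18 remained, Mrps12 (-1.16, adjusted p = 0.0421) and Mrpl43 (-1.48, adjusted p = 0.0449), along with 1046 of the 13673 genes (7.65%). With diet as a covariate 16 of the 73 were called, against 21.7% of all genes. Calls were then lost for Mrps11 (adjusted p = 0.0765), Mrpl55 (0.0671) and Mrpl47 (0.0582), and Mrpl35 was gained (0.31, adjusted p = 0.0340). Leaving out 1 rat moved the number of calls over all genes as well, between 2046 (15%) and 4953 (36.2%). Of the 73 genes it gave 8 called without HFD 1274 or SD 1244, 9 without HFD 1252, SD 1246 or SD 1247, 11 without HFD 1271 and 12 to 23 without any 1 of the others. Of the 18 genes, Mrps12, Mrps26, Mrps34, Mrpl2, Mrpl34, Mrpl38, Mrpl43 and Mrpl54 were called each time. Mrps11 and Mrpl3 were called in 4 of the 16 such fits. Without rats 1246, 1248 and 1249, 5 (6.85%) remained, Mrps12, Mrpl2, Mrpl4, Mrpl38 and Mrpl43, against 1482 of all genes (10.8%). Without the 5 rats at the end of the first component 0 of the 13673 genes were called by limma, and 3 of the 73 had an unadjusted p under 0.05. Mrps12 then had -0.40, Mrpl43 -0.42, Mrps14 0.33 and Mrpl48 0.47.

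Other genes of mitochondrial translation were also split by MMI, where 17.7% of all genes were lower and 8.37% higher. Among 20 aminoacyl-tRNA synthetases of mitochondria, which load the tRNAs, 5 fell and 1 rose. Sars2, for serine, fell by 1.37 on the log2 scale (standard error 0.31), Aars2, for alanine, by 1.05 and Vars2, for valine, by 1.02. Of 24 assembly factors 4 fell, among them Mpv17l2 (-0.72) and the helicase Dhx30 (-0.64), and the 12S rRNA methyltransferase Mettl15 rose (0.62). Of 11 translation factors 1 fell, the elongation factor Tsfm (-0.70). Polrmt, the RNA polymerase of mitochondria, fell by 1.99 on the log2 scale (standard error 0.40, adjusted p = 0.00798 from limma), the DNA polymerase Polg by 0.49, and the DNA packaging factor Tfam rose by 0.27. Esrra, a nuclear receptor that drives mitochondrial genes, fell by 2.15 (standard error 0.44), and its coactivator Ppargc1b fell by 1.13. Nrf1, Gabpa and Yy1 were not called. None of the 13 mRNAs of mitochondrial DNA was called (median 0.11), and they made up 17.9 to 29.6% of counts with MMI, against 18.2 to 24.5% without.

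The larger families were split as well. Of 74 nuclear respiratory chain and ATP synthase genes 12 fell and 1 rose (17.6% called, against 26% of all genes), with Ndufs7 at -2.63 and Atp5f1d at -1.87. Of 74 cytosolic ribosomal protein genes 12 fell, such as Rps15 (-1.56), and 9 rose, such as Rps4x (0.45), which is 28.4% called. Markers of cell types differed by MMI too. Of 8 podocyte markers 3 fell, among them Synpo and Nphs1, of 14 proximal tubule markers 2 fell and of 6 thick ascending limb markers 3 rose. Summed, the podocyte markers made up 0.00625 to 0.0345% of counts with MMI, against 0.0215 to 0.0344% without, the proximal tubule markers 1.18 to 2.25% against 1.74 to 2.87%, and the thick ascending limb markers 0.521 to 1.21% against 0.463 to 0.754%. Macrophage markers (2 of 8 fell) made up 0.0152 to 0.0270% against 0.00996 to 0.0400%, red blood cell markers (0 of 6 called) 0.0686 to 0.329% against 0.0989 to 0.397%, and adipocyte markers (0 of 6 called) 0.0101 to 0.0870% against 0.0128 to 0.0593%. Of these, 1 macrophage and 1 adipocyte marker were at 0 in some rats. The part of these cells in the differences was not tested.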

How the data were processed

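The values analysed are the normalized counts per gene and library deposited by the authors, a signal not corrected for transcript length. From total RNA of whole kidney the authors made strand-specific libraries (40 to 50 M reads each), trimmed reads with Cutadapt, quantified genes in Rnor6.0 with Salmon and tested diets with DESeq2 1.24.0. The deposited table also holds their mean, log2 fold change, standard error and p-values by diet, which were not used. Read numbers could not be recovered from the values, so counting error is unknown, and how the libraries were scaled could not be read from them.

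Groups were compared with limma 3.58.1 (trended variance, R 4.3.3, two-sided) on log2(normalized count + 1) over all 13673 genes with a mean of at least 5, with Benjamini-Hochberg adjustment over them, and an adjusted p under 0.05 counted as a call. All 16 rats entered each comparison without covariates, and the interactions with diet were fitted in the same way. Fold changes are on the log2(value + 1) scale. The fits were also run on simulated data with noise drawn independently for each gene. Those data lack the shared variation along the first principal component, so that run cannot show how the fits behave with it. Each library is 1 rat, so p-values measure the spread between these rats.

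Genes named for a comparison were the 6 with the smallest p and up to 3 more against the median, along with the extremes of level, the genes of inherited defects and, in each list outside the ribosome, up to 4 by p. The other genes called by MMI, Mrpl10, Mrpl43 as the most variable, Mrps36 and the genes named for their promoters were chosen after their values were seen. The genes, lists and tests were chosen with earlier results of these data known. Alternatives were other pseudocounts (0.5 and 5), filters and scalings, robust variance, array weights, other thresholds, covariates, each diet alone and leaving out rats. Leaving out the 5 rats that stand apart was chosen after seeing the data. Promoter windows and gene names are from RefSeq (GRCr8). Small RNA was not analysed here. Values of some single genes outside the ribosome are not reported here.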

Additional observations from a re-analysis of the deposited data

Results flagged for a closer look

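In 4 of the 66 groups of rats looked at, 1 rat lay farther from the others than Dixon's 95% limit, and chance alone gives about 1 in 20. Mrpl23 stood at 884 normalized counts in HFD rat 1256, the highest of the HFD rats (gap over range 0.579, limit 0.526). Mrpl43 stood at 179 in rat 1252, the lowest of the rats with PH (0.560, limit 0.493). Mrps6 stood at 2286 in rat 1250, the lowest of the rats without PH (0.577, limit 0.568). Mrps14 stood at 1069.9 in rat 1251, the highest of the rats without MMI (0.538, limit 0.526).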

How the results depend on the processing

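The medians of the 73 genes moved by less than the spread between rats under every alternative run. By diet they ran from -0.26 to -0.13, and by PH (-0.17 to 0.13) and by MMI (-0.14 to 0.15) they took either sign. By diet 0 genes were called under all of them, except that 5 had an unadjusted p under 0.05. By PH, where 1 gene was called, the number was 20 with array weights (36.4% of all genes called), 12 at an unadjusted p under 0.05 and 10 with diet as a covariate. It was 0 with a pseudocount of 5 (1.15% of all genes), without a filter (0.61%), with equal totals (0.461%) and with a fold limit (0.636%). It was also 0 within HFD rats (0.914% of all genes) and within SD rats (2.3%). With MMI as a covariate, without rats 1246, 1248 and 1249 and without the 5 rats apart it was 0, as for all genes. When 1 rat was left out it ran from 0 to 13. By MMI, where 18 were called, it was 29 with array weights (47.8% of all genes), 7 with a fold limit (8.71%) and 2 with PH as a covariate (7.65%). Without rats 1246, 1248 and 1249 it was 5 (10.8% of all genes). Within HFD rats and without the 5 rats apart 0 were called, as for all genes, and within SD rats 0 (0.0146% of all genes). Leaving out 1 rat gave 8 (without HFD 1274 or SD 1244) to 23 (without HFD 1256). Without the 5 rats apart Mrpl55 (0.091) and Mrpl57 (0.061) changed sign. With array weights 3 genes (4.11%) were called for the interaction of MMI and diet, against 9.76% of all. Without the 5 rats apart the values by PH of Mrps11, Mrpl28, Mrpl55 and Mrpl57 changed sign too. The cause of these changes was not tested. The depth behind single values is unknown, and groups of 7 to 9 rats limit what could be detected. No paired analysis was possible because each rat received 1 diet and rat numbers are shared only between tissues of the same rat.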
